A study of Mus musculus with 4 samples.

Results

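Sterol and fatty acid synthesis genes are described here as a set of 34 genes, the rows of the deposited count matrices that carry the symbols of a fixed list. That list was chosen with earlier results of these data known. They are 34 of the 32285 genes in each matrix, and all 34 symbols were found once. By role, 8 belong to the mevalonate branch, 11 to the steps from squalene to cholesterol, 9 to fatty acid synthesis, elongation and desaturation, and 6 to the regulation of these pathways or to sterol transport. The study profiled single cells of the retinal pigment epithelium (RPE, a pigmented sheet that serves the photoreceptors) and of the choroid, its underlying vascular bed, with droplet sequencing (10x Genomics). It holds 4 libraries with 1 library per group, from wild-type and Vldlr-/- mice that were 1 month or 2 months old. Vldlr encodes the very low density lipoprotein receptor, which takes up lipoprotein particles. Strain, sex, the deleted part of the gene and the number of animals pooled in a library are not given in the sources used here. With 1 library per group no difference between genotypes has a replicate check, no test was run, and every interval below covers counting error only.

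Cells make cholesterol from acetyl-CoA through mevalonate, isoprenoid diphosphates, squalene and lanosterol, and they make fatty acids from the same precursor through malonyl-CoA. When sterol in the membrane of the endoplasmic reticulum is low, the escort protein Scap carries the SREBP precursors, products of Srebf1 and Srebf2, to the Golgi, where the active factors are released. Insig proteins hold that complex back when sterol is plentiful, and Insig1 is itself a target of the pathway. The RPE receives lipid both from the blood and from the outer segments it ingests, and it also synthesises sterol and fatty acids of its own.

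Cells were grouped by clustering, and a cluster was called X-like from its markers. RPE-like cells numbered 236 (wild type) and 165 (knockout) at 1 month and 1457 and 608 at 2 months, with sums of 601774, 375311, 15729132 and 8077594 UMIs (unique molecules). The 2-month values therefore rest on far more molecules. All 7 RPE markers were counted at 2 months, and 6 of 7 at 1 month, where Best1 was at 0. In RPE-like cells the level of Vldlr was 130 CPM (UMIs per 1000000) in wild type against 10.7 CPM in the knockout at the younger age, and 177 against 27.0 CPM at the older. The 1-month libraries were counted with Cell Ranger 6.0.2 and the 2-month libraries with 7.0.1, per the file headers, so age and software cannot be told apart and genotypes were compared only within an age. Markers of red blood cells summed to 533, 946, 436 and 27.9 CPM in RPE-like cells (wild type and knockout, 1-month pair first), and markers of macrophages to 158, 149, 174 and 179 CPM. Of 6554 different kept barcodes, 1 occurred in more than 1 library. The female-specific RNA Xist gave 4.99 CPM in wild-type against 37.3 CPM in knockout RPE-like cells of the 1-month libraries, and 49.8 against 178 CPM in those of 2 months. Y-linked Ddx3y gave 29.9, 32.0, 66.4 and 41.6 CPM in the same order. The part of the animals' sex, and of these other cells' RNA, in the results below was not tested.

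The promoters are shown first because genes of these pathways are known to share short control sequences, the sterol regulatory element bound by SREBP and the boxes bound by NF-Y and Sp1, which act with it. RefSeq promoter sequence (GRCm38.p6, 250 bases before to 50 bases after a start) was matched for 27 of the 34 members, in 35 promoters. It was not used for Fdps, Fdft1, Sqle, Fads1, Scd1, Scd2 and Stard4. The letters TCACNCCAC, one form of the sterol regulatory element, were found on either strand in the promoters of 1 of the 27 members, Hmgcs1, and in 1.44% of 27025 genes. CCAAT, the core of the NF-Y box, was found on either strand for 22 of the 27 members (81.5%) and in 41.1% of all genes. GGGCGG, the core of the GC box, was found for 21 of the 27 (77.8%) and in 38.2% of all genes. Both of these short motifs were present in all 9 matched genes of the steps from squalene to cholesterol, while 3 of the 6 matched fatty acid genes held CCAAT and 2 of the 6 held GGGCGG. Among the 35 member promoters, 1 pair of matches overlapped. A match is a description of letters and says nothing of whether a factor binds there. Stretches of 100 bases are printed 5′ to 3′ on the strand of the gene, in lower case. Every match inside the stretch is in capitals (ATTGG and CCGCCC are the reverse-strand forms). The stretches are from the 1 member with a sterol regulatory element match, 3 members that were at least 1.5-fold higher in knockout RPE-like cells at 2 months, and Sc5d, which was lower. Elovl6, also at least 1.5-fold higher and with a matched promoter, held none of these motifs and is not printed. The stretches run from 137 to 38 bases before the start in Hmgcs1, 100 to 1 in Mvd and 127 to 28 in Lss. Those of Insig1 and Sc5d run from 216 to 117 and from 241 to 142. Matches outside them are not shown, such as the CCAAT match of Sc5d (-24 to -20) and the GGGCGG match of Mvd (-140 to -135).
Hmgcs1, chr13:119690214-119690313, plus strand: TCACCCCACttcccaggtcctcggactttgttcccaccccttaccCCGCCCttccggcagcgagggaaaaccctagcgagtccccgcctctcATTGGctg
Mvd, chr8:122443423-122443522, minus strand: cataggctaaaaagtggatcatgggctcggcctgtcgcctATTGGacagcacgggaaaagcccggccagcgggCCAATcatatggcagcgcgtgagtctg
Lss, chr10:76531478-76531577, plus strand: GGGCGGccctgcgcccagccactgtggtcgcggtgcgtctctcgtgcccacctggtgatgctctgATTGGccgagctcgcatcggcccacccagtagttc
Insig1, chr5:28071196-28071295, plus strand: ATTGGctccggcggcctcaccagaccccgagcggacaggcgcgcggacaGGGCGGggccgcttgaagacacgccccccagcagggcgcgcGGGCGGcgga
Sc5d, chr9:42264442-42264541, minus strand: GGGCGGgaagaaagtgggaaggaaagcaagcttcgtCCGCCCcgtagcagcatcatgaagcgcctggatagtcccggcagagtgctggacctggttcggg

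The level of the members by cell class was the next question. Within the wild-type 2-month library, 19 of the 34 members had their highest CPM in RPE-like cells among 6 classes with at least 30 cells, and for 11 of these the exact Poisson 95% interval did not overlap that of the next class. In the knockout library of that age the numbers were 22 and 10, and at 1 month they were 18 and 3 in wild type and 22 and 8 in knockout. By CPM alone, RPE-like cells ranked first in all 4 libraries for Fdft1, Sqle, Cyp51, Tm7sf2, Msmo1, Sc5d, Elovl6, Fads1, Fads2, Scd2, Srebf1, Insig1 and Scap. At most 3 of these had an interval clear of the next class in the wild-type 1-month library. For the others the first rank there lay within counting error. Fads2, the delta-6 desaturase that starts the synthesis of long polyunsaturated fatty acids, was counted at 195 CPM in RPE-like cells of the wild-type 2-month library, where the next class, fibroblast-like, had 35.6 CPM. In the knockout library it was at 224 CPM, and the next class, mural-like, had 48.8 CPM. Msmo1, a C4-methyl sterol oxidase, was at 83.2 CPM in the former library, ahead of 24.8 CPM in endothelial-like cells, and at 114 CPM in the latter, ahead of 45.2 CPM in macrophage-like cells. Elovl5, which elongates polyunsaturated fatty acids, was highest in endothelial-like cells at 2 months, with 97.0 and 96.4 CPM. Scd1, the stearoyl-CoA desaturase that makes oleate and palmitoleate, had its highest level outside the RPE-like cells in all 4 libraries: in B-like lymphocytes at 1 month (187 and 145 CPM) and in fibroblast-like cells at 2 months (62.0 and 51.4 CPM). In the knockout 2-month library the intervals of fibroblast-like and RPE-like cells (50.0 CPM) overlapped.

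**Figure D1:**
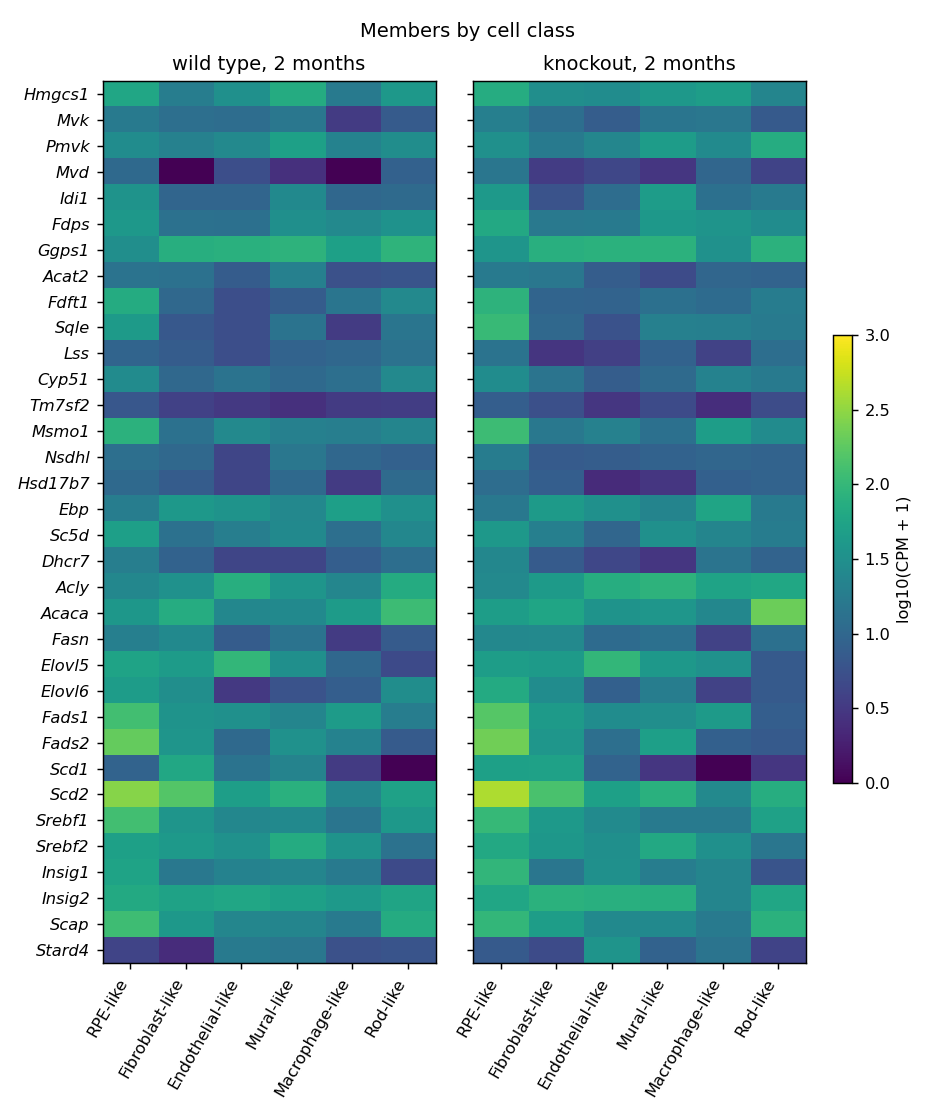
Colour gives log10(CPM + 1) of each member (rows) in 6 cell classes (columns) of the wild-type and knockout 2-month libraries, with no error shown. Fads1, Fads2, Scd2, Msmo1 and Fdft1 are brightest in RPE-like cells in both panels, and Scd1 goes from 7.95 to 50.0 CPM in the RPE-like column.

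At 2 months the sterol and fatty acid genes were mostly higher in knockout RPE-like cells. All 34 members had at least 30 UMIs over both libraries and were compared, and 28 were higher and 6 lower in the knockout. Among all 11856 genes compared, 59.4% were higher. The members were chosen with earlier results of these data known, so their contrast with all genes is a description and not independent evidence. The median log2 ratio of the members was 0.31, against 0.06 for all genes. Of the 34, 21 had a 95% interval above 0 (all genes 21.4%) and 4 had one below 0 (all genes 11.1%). At least 1.5-fold higher with an interval above 0 were 9 members (all genes 8.14%), and 0 were at least 1.5-fold lower with an interval below 0 (all genes 2.33%). At least 2-fold higher were 2 members, Sqle and Scd1 (all genes 3.27%). The summed level of all members was 1765 CPM in the wild-type library and 2239 CPM in the knockout library, a log2 ratio of 0.34 (0.32 to 0.37).

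In the mevalonate branch all 8 genes were higher at 2 months, with a median log2 ratio of 0.28 and 5 intervals above 0. Fdps (ENSMUSG00000059743, GRCm38 chromosome 3, 89093588 to 89101959, minus strand) makes farnesyl diphosphate, the last shared intermediate before sterols and isoprenoids part. It had 18 UMIs (wild type) against 25 (knockout) in the 1-month pair of libraries (29.9 and 66.6 CPM) and 602 and 516 in the 2-month pair (38.3 and 63.9 CPM), and values below keep this order. The knockout library was the higher at each age, with log2 ratios of 1.14 (0.22 to 2.12) and 0.74 (0.57 to 0.91). Of 60-base stretches in the last 600 bases of Fdps transcripts, 74.4% also occur in other annotated genes, so its counts are uncertain in level, though none of those genes has a row in the matrices. Mvd, which decarboxylates mevalonate diphosphate, had 6 and 5 UMIs in the 1-month pair of libraries and 149 and 115 in the 2-month pair (9.47 and 14.2 CPM, log2 ratio 0.59, 0.22 to 0.95). The other 6, Hmgcs1, Mvk, Pmvk, Idi1, Ggps1 and Acat2, lay between 0.13 (Pmvk) and 0.30 (Ggps1). Idi1 and Acat2 also share such stretches with other genes (40.4% and 24.7%), as do Acaca (20.5%) and Tm7sf2 (13.9%) of the groups below, so their counts are uncertain too.

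In the steps from squalene to cholesterol 9 of 11 genes were higher at 2 months, with a median of 0.33. Sqle (ENSMUSG00000022351, chromosome 15, 59315077 to 59331192, plus strand) encodes squalene epoxidase, one of the rate-controlling enzymes of the pathway. It had 26 and 46 UMIs in the 1-month pair of libraries (43.2 and 123 CPM) and 666 and 834 in the 2-month pair (42.3 and 103 CPM). Within each age the knockout library was above the wild-type library. The log2 ratios were 1.49 (0.78 to 2.26) and 1.29 (1.14 to 1.44), so that Sqle was the 1 member at least 2-fold higher at both ages among 20 compared at both, where 0.192% of 3646 genes were. The share of RPE-like cells with a Sqle UMI was 30.2% and 47.7% at 2 months, and 11.4% (9.72 to 13.3) and 24.2% (20.4 to 28.3) with every cell thinned to 3000 UMIs, which left out 187 and 132 shallower cells.

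Lss, lanosterol synthase, which closes the sterol rings, had 8 and 4 UMIs in the 1-month pair of libraries and 130 and 105 in the 2-month pair (8.27 and 13.0 CPM, log2 ratio 0.65, 0.27 to 1.04). Nsdhl (0.58) and Msmo1 (0.45), which act in removing the C4 methyl groups, Dhcr7 (0.37), which reduces 7-dehydrocholesterol, and Fdft1 (0.31), squalene synthase, also had intervals above 0. Cyp51, the lanosterol demethylase, was at 0.03 (-0.21 to 0.26), and Tm7sf2 and Hsd17b7 had intervals that include 0. Sc5d, the sterol C5 desaturase, went the other way, with 40 and 19 UMIs in the 1-month pair and 759 and 316 in the 2-month pair (48.2 and 39.1 CPM, -0.30, -0.50 to -0.11). Ebp, the sterol isomerase that acts just before it, was at -0.25 (-0.57 to 0.06). Nsdhl and Ebp lie on the X chromosome.

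Among the fatty acid genes 8 of 9 were higher at 2 months, with a median of 0.38. Scd1 (ENSMUSG00000037071, chromosome 19, 44394455 to 44407879, minus strand) showed the widest 2-month difference of the members. It had 3 and 18 UMIs in the 1-month pair of libraries (4.99 and 47.96 CPM) and 125 and 404 in the 2-month pair (7.95 and 50.0 CPM). Within each age the knockout library was near 50 CPM and the wild-type library under 10 CPM. The 2-month log2 ratio was 2.65 (2.36 to 2.96), or 6.28-fold, and the 1-month ratio, from under 30 UMIs, was 3.08 (1.49 to 5.67).

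In the 2-month pair 6.04% of the wild-type RPE-like cells held a Scd1 UMI, as did 29.6% of the knockout cells. At 3000 UMIs per cell the shares were 2.13% (1.41 to 3.08) and 11.97% (9.20 to 15.2). In rod-like cells, a class with little Scd1, no cell of 108 in the wild-type library held a Scd1 UMI (exact upper bound 3.36%) and 2 of 49 did in the knockout (4.08%, 0.498 to 14.0), at median depths of 2588 and 3046 UMIs against 8261 and 9416 in RPE-like cells, so these shares are not at equal depth. The 6 fibroblast markers summed to 7.76 and 11.1 CPM in RPE-like cells of the 2-month libraries, with none at 0. Of 6 adipocyte markers, a list written after the values were seen, Adipoq, Cidec and Cfd were at 0 in all 4 libraries of RPE-like cells and the list summed to 14.8 and 13.9 CPM at 2 months. Subtracting free RNA, estimated at 3.10% (wild type) and 1.01% (knockout) of RPE-like UMIs at 2 months, is 1 of the alternatives described below. Over all alternatives Scd1 ranged from 1.57 to 3.14. Beyond this the part of free RNA or of other cells in the Scd1 result was not tested.

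Scd2 (ENSMUSG00000025203, chromosome 19, 44293674 to 44306864, plus strand), the neighbouring desaturase gene, had 111 and 134 UMIs in the 1-month pair of libraries (184 and 357 CPM) and 4428 and 3465 in the 2-month pair (281 and 429 CPM). The knockout was the higher at both ages, at log2 ratios of 0.95 (0.58 to 1.33) and 0.61 (0.54 to 0.67). No 60-base stretch at the 3′ end of Scd1 or Scd2 occurs in another annotated gene. Elovl6, which elongates palmitate to stearate, the substrate of the desaturases, had 22 and 11 UMIs in the 1-month pair of libraries (36.6 and 29.3 CPM, -0.29, -1.51 to 0.79) and 697 and 545 in the 2-month pair (44.3 and 67.5 CPM, 0.61, 0.44 to 0.77). Its 2-month ratio was 0.26 and 0.19 within the Malat1-poor and Malat1-rich barcodes described below, with intervals that include 0 in each.

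Fads2 had 75 and 73 UMIs in the 1-month pair of libraries (125 and 194 CPM, 0.64, 0.16 to 1.13) and 3072 and 1805 in the 2-month pair (195 and 224 CPM, 0.19, 0.11 to 0.28). Elovl5 had 17 and 24 UMIs in the 1-month pair of libraries (28.2 and 63.9 CPM, 1.17, 0.22 to 2.17) but 846 and 373 in the 2-month pair (53.8 and 46.2 CPM, -0.22, -0.40 to -0.04). It was the 1 fatty acid gene lower in the knockout at 2 months. Fads1 (0.38), Fasn (0.38), the fatty acid synthase, and Acaca (0.27), which makes malonyl-CoA, had intervals above 0 at 2 months, and Acly, which supplies cytosolic acetyl-CoA, was at 0.08 (-0.17 to 0.33). Acaca turned in the Malat1-rich barcodes, to -0.35 (-0.60 to -0.09), and was at 0.13 (-0.19 to 0.43) in the Malat1-poor ones. Scd1, Scd2, Fads1, Fads2 and Tm7sf2 lie on chromosome 19, as Vldlr does (27216484 to 27254231), and any part of sequence linked to the targeted gene was not tested.

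Among the regulators 3 of 6 genes were higher and 3 lower at 2 months, with a median of 0.11. Insig1 (ENSMUSG00000045294, chromosome 5, 28071363 to 28078662, plus strand), which retains the SREBP precursors, had 31 and 30 UMIs in the 1-month pair of libraries (51.5 and 79.9 CPM, 0.63, -0.14 to 1.41) and 856 and 754 in the 2-month pair (54.4 and 93.3 CPM, 0.78, 0.64 to 0.92). Its paralog Insig2 was at -0.12 (-0.28 to 0.03). Stard4, a carrier of cholesterol between membranes, had 1 and 3 UMIs in the 1-month pair of libraries and 49 and 49 in the 2-month pair (3.11 and 6.07 CPM, 0.96, 0.36 to 1.56). Srebf2, whose product drives the sterol genes most strongly, was at 0.34 (0.18 to 0.51). Srebf1, whose products favour the fatty acid genes, was at -0.29 (-0.42 to -0.18), from 1928 and 807 UMIs, and Scap at -0.25 (-0.37 to -0.13). In the Malat1-rich barcodes described below the 5 compared regulators were instead all higher in the knockout (summed log2 ratio 0.29, 0.18 to 0.41), with Scap at 0.21 (-0.03 to 0.46). Protein processing was not measured.

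**Figure D2:**
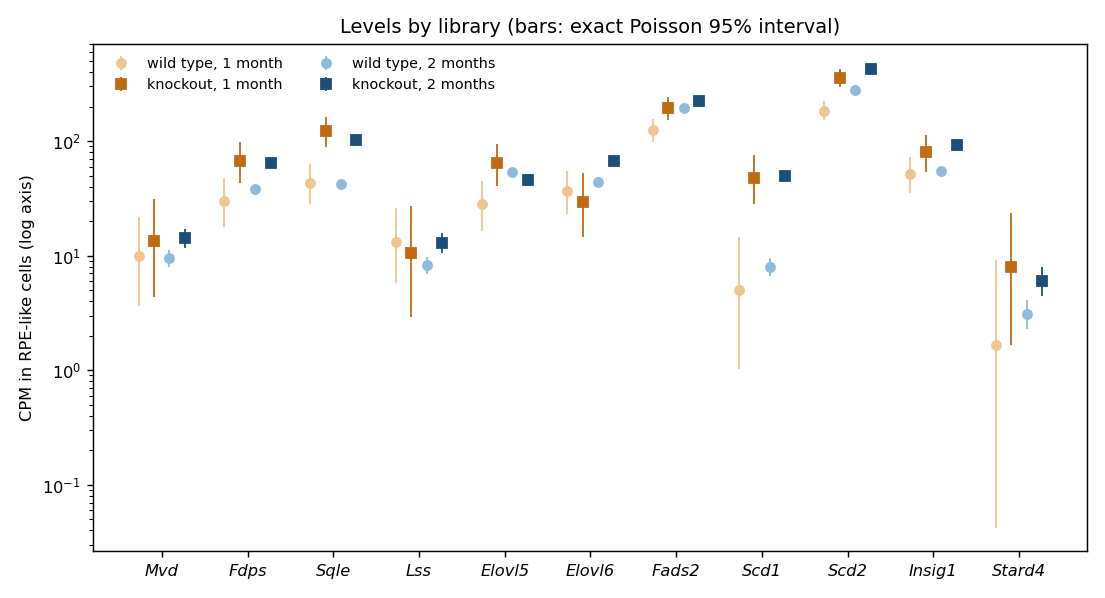
CPM in RPE-like cells (log axis) of the 11 members that were at least 1.5-fold apart at an age with an interval that excludes 0, by library, with bars for the exact Poisson 95% interval. Within each age Scd1 lies near 50 CPM in the knockout library, against 4.99 CPM (1 month) and 7.95 CPM (2 months) in wild type. Sqle is also higher in the knockout within each age.

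At 1 month 20 of the 34 members reached 30 UMIs and 15 of these were higher in knockout RPE-like cells (all 3647 genes compared, 50.1%). The median log2 ratio was 0.40 against 0.00 for all genes. Intervals above 0 were found for 5 members, Fdps, Sqle, Elovl5, Fads2 and Scd2 (all genes 9.21%), and intervals below 0 for 0 (all genes 8.72%). The same 5 were at least 1.5-fold higher (all genes 6.69%), and 0 were at least 1.5-fold lower with an interval below 0 (all genes 4.69%). Sqle, Elovl5 and Fdps were at least 2-fold higher (all genes 3.48%). Under 30 UMIs were Mvk, Mvd, Acat2, Lss, Tm7sf2, Nsdhl, Hsd17b7, Ebp, Dhcr7, Acly, Acaca, Fasn, Scd1 and Stard4. The mevalonate branch had 5 of 5 genes higher, the fatty acid genes 4 of 5, the regulators 4 of 5 and the steps from squalene to cholesterol 2 of 5, where Fdft1, Cyp51 and Sc5d were lower with intervals that include 0.

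Of the 20 members compared at both ages, 12 were higher at both (all genes 26.3%), namely Hmgcs1, Pmvk, Idi1, Fdps, Ggps1, Sqle, Msmo1, Fads1, Fads2, Scd2, Srebf2 and Insig1. Sc5d and Srebf1 were lower at both, with 1-month intervals that include 0. Fdft1, Cyp51, Elovl5, Elovl6, Insig2 and Scap had opposite signs, and among these Elovl5 alone had intervals that exclude 0 at both ages. The 2 ages have separate libraries and share no control.

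**Figure D3:**
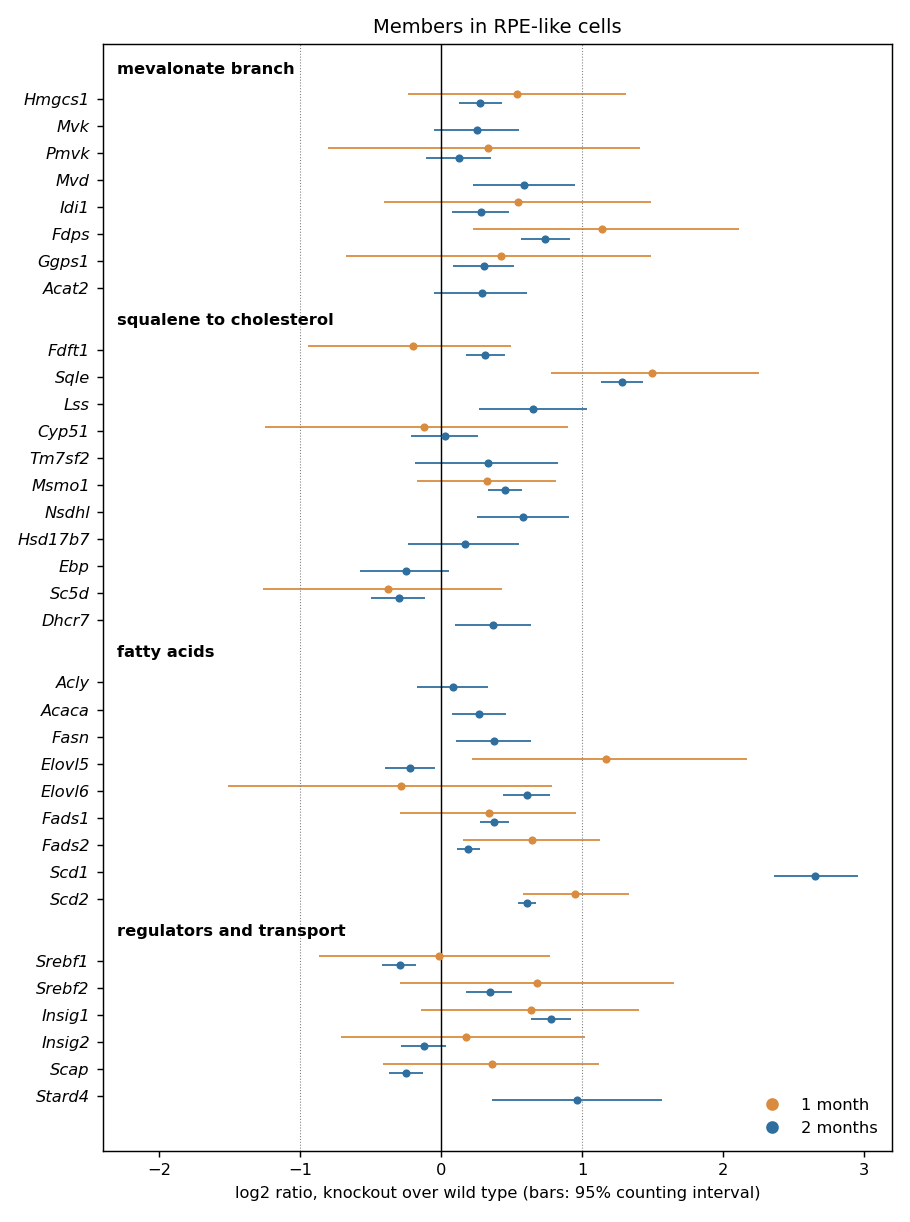
Log2 ratio of knockout to wild type in RPE-like cells for each member with at least 30 UMIs, at 1 month and 2 months, grouped by role, with bars for the 95% counting interval and dotted lines at 2-fold. The 2-month points lie to the right of 0 for 28 of 34 members, Scd1 and Sqle lie beyond 2-fold, and the 1-month bars are wide.

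Seen per cell, the summed UMIs of the 19 sterol synthesis members had medians per 10000 UMIs of 5.90 (wild type) against 7.84 (knockout) for the RPE-like cells of 1 month and 5.06 against 6.20 for those of 2 months. For the 9 fatty acid members the medians were 4.23 and 7.26 at 1 month and 7.41 and 9.77 at 2 months. Without Scd1 and Scd2 they were 1.15 and 3.58, and 4.36 and 5.09. At 1 month only 50.4% (wild type) and 56.4% (knockout) of cells held a UMI of these 7 genes, and the lower quartile was 0 in both. The wild-type median there thus lay next to the cells with no UMI, and the gap between these 1-month medians is uncertain in size. The middle 50% of cells at 2 months had 2.95 to 7.37 sterol member UMIs per 10000 in wild type, and 3.74 to 8.94 in the knockout, so the cells of the genotypes overlapped widely.

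RPE-like barcodes differed in how much of the nuclear RNA Malat1 they held, and the share at or above 1000 CPM of Malat1 was 11.4% in wild type and 28.0% in knockout at 2 months (21.2% and 25.5% at 1 month). The members were therefore compared within each kind of barcode. In Malat1-rich barcodes 29 of 33 members were higher in the knockout at 2 months (all genes 49.5%), with a median of 0.43 (all genes 0.00). In Malat1-poor barcodes 25 of 34 were higher (all genes 44.1%), with a median of 0.29 (all genes -0.04). Sqle was at 1.42 and 1.30, Fdps at 1.08 and 0.71, Insig1 at 0.88 and 0.85 and Scd2 at 0.72 and 0.65 in rich and poor barcodes. Scd1 went from 15.7 to 46.9 CPM in Malat1-rich barcodes (log2 ratio 1.57, 1.12 to 2.06) and from 5.93 to 52.7 CPM in Malat1-poor ones (3.14, 2.77 to 3.55). The wild-type levels of Scd1 were further apart between the kinds of barcode than the knockout levels. Srebf1 was at 0.01 (-0.23 to 0.26) and Sc5d at 0.01 (-0.35 to 0.37) in Malat1-rich barcodes, against -0.22 and -0.35 in Malat1-poor ones. At 1 month 1 member, Scd2, reached 30 UMIs in Malat1-rich barcodes.

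**Figure D4:**
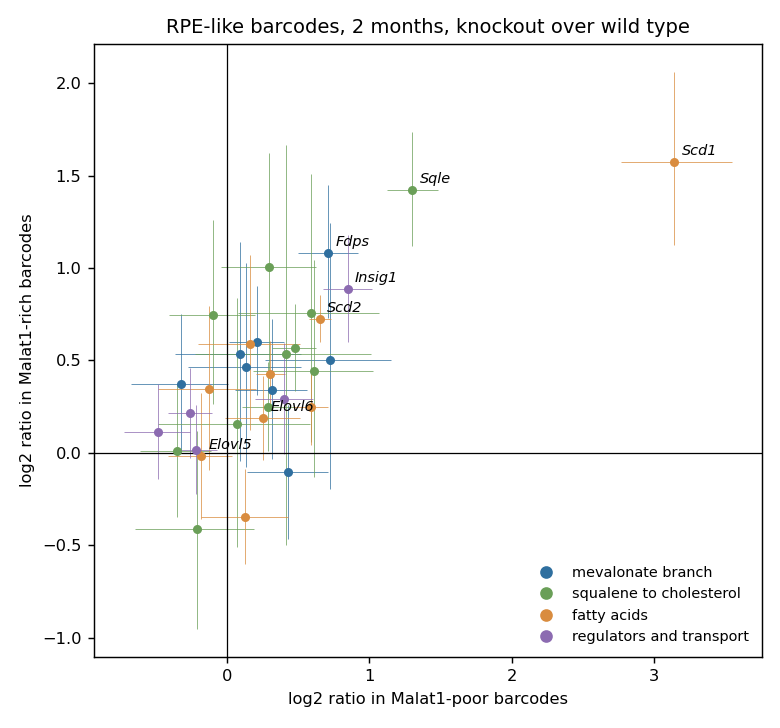
Log2 ratio of knockout to wild type at 2 months in Malat1-poor (horizontal) and Malat1-rich (vertical) RPE-like barcodes for members with at least 30 UMIs in each, coloured by role, with thin lines for the 95% counting intervals. Most points lie right of and above 0, Scd1 (3.14 and 1.57) and Sqle (1.30 and 1.42) stand apart, and Elovl6 lies at 0.26 and 0.19.

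Most RPE-like clusters with at least 30 cells in each 2-month library gave medians above 0. The largest shares of wild-type cells lay in clusters 1 and 2 (28.0% and 26.4%), and those of knockout cells in clusters 1 and 0 (22.4% and 20.4%). The median of the members was 0.39 in cluster 1, 0.30 in cluster 2, 0.10 in cluster 5 (all genes -0.12), 0.43 in cluster 9 and -0.07 in cluster 0 (all genes -0.09), where 16 members reached 30 UMIs. Scd1 was at 4.05 (18 and 113 UMIs), 2.82 (29 and 72), 3.45 (7 and 35) and 1.45 (50 and 164) in clusters 1, 2, 5 and 9, and its counts in cluster 0 were 2 and 9. Sqle was at 1.47, 1.24, 0.90 and 1.43 in those 4 clusters. At 1 month cluster 0 held 74.2% (wild type) and 75.8% (knockout) of these cells. There 9 of 13 members were higher (all genes 47.4%), with a median of 0.25 (all genes -0.03).

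In the other classes the members showed smaller medians or rested on few UMIs. In macrophage-like and mural-like cells the summed levels, given below, did not follow the medians. For some roles and classes the summed levels were near or above those of RPE-like cells. The counts of members higher in these classes are given without the share of all genes that were higher. At 1 month the summed fatty acid genes were at -0.29 (-0.49 to -0.09) in B-like cells. In cells with T or natural killer cell markers they were at 0.27 (0.02 to 0.51). In fibroblast-like cells at 1 month 21 of 32 members were higher, with a median of 0.20 (all genes 0.03), 9 intervals above 0 (all genes 10.1%) and 0 below (all genes 7.93%). The 9 include Sqle, with 9 and 28 UMIs (3.82 and 9.41 CPM, 1.25, 0.18 to 2.57), Idi1 (1.25), Fdft1 (1.07), Insig1 (0.48), Srebf2 (0.49) and Scap (0.58). Summed, the steps from squalene to cholesterol were there at 0.35 (0.16 to 0.55) and the regulators at 0.39 (0.21 to 0.58). In RPE-like cells of 1 month these sums were at 0.26 and 0.38. The mevalonate branch and the fatty acid genes were lower in fibroblast-like cells, at 0.21 and -0.01 against 0.63 and 0.70. At 2 months 14 of 25 were higher in fibroblast-like cells, with a median of 0.06, 2 intervals above 0 (Hmgcs1 and Insig2, all genes 8.78%) and 0 below (all genes 8.58%). Scd1 in these cells was at 60.7 and 53.8 CPM at 1 month (-0.18, -0.51 to 0.16) and at 62.0 and 51.4 CPM at 2 months (-0.27, -0.69 to 0.16). In B-like cells at 1 month it was at 187 and 145 CPM (-0.36, -0.62 to -0.11). The 2 classes that held the most Scd1 outside the RPE thus gave ratios below 0, where RPE-like cells of the same libraries gave 3.08 and 2.65. The difference between the classes was not tested.

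In endothelial-like cells at 2 months 9 of 18 members were higher, with a median of 0.00, 1 interval above 0 (Stard4, 15 and 52 UMIs, 1.07, all genes 10.3%) and 0 below (all genes 7.94%). In mural-like cells 9 of 13 were higher, with a median of 0.36, 1 interval above 0 (Acly, 1.27, all genes 7.98%) and 1 below (Hmgcs1, -0.80, all genes 6.82%). Summed over all members, mural-like cells were at 0.09 (-0.09 to 0.27). By role, only the summed fatty acid genes, at 0.41 (0.10 to 0.72), had an interval that excludes 0. The mevalonate branch was at -0.12 and the steps from squalene to cholesterol at -0.06. In macrophage-like cells 5 of 10 were higher, with a median of 0.07, 3 intervals above 0 (Hmgcs1 1.43, Msmo1 1.25 and Acly 1.19, all genes 9.12%) and 0 below (all genes 8.89%). These 3 were counted from 7 to 10 UMIs in the wild-type library. Summed over all members, macrophage-like cells were at 0.31 (0.09 to 0.54), against 0.34 in RPE-like cells. The further pathway genes described below summed to 0.19 (0.06 to 0.33) in macrophage-like cells, against 0.04 (0.02 to 0.07) in RPE-like cells. In macrophage-like cells the mevalonate branch was at 0.51 (0.05 to 0.996) and the steps from squalene to cholesterol were at 0.61 (0.16 to 1.08). Their fatty acid genes (0.13) and regulators (-0.07) had intervals that include 0. Sqle, under the filter there, had 1 and 13 UMIs. In rod-like cells at 1 month, 166 in wild type and 481 in knockout, 8 of 22 members were higher and 14 lower, with a median of -0.19 (all genes 0.03). There 4 intervals lay below 0 (all genes 7.31%), those of Hmgcs1 (-1.44), Idi1 (-1.07), Fdps (-0.97) and Insig1 (-1.97). The shares of rod-like cells with a UMI did not follow these ratios: they were 7.23% in wild type and 10.8% in knockout for Hmgcs1, 9.04% and 8.94% for Idi1, 12.7% and 16.4% for Fdps, and 3.01% and 2.91% for Insig1, with overlapping intervals. Above 0 lay 3 (all genes 7.69%), those of Lss (1 and 36 UMIs, 2.80, 0.80 to 8.71), Acaca (0.64) and Scd2 (0.63). The rod-like cells of both genotypes lay in the same clusters but were spread differently over them. Cluster 6 held 59 of the 166 wild-type and 286 of the 481 knockout cells, and cluster 12 held 61 and 134. The summed mevalonate branch in rod-like cells was at -0.72 (-0.94 to -0.49) at 1 month and at 0.14 (-0.14 to 0.44) at 2 months. Summed over all members, rod-like cells were at -0.26 (-0.39 to -0.13) and 0.16 (0.02 to 0.30). At 2 months their fatty acid genes were at 0.38 (0.15 to 0.62), against 0.45 in RPE-like cells. Their steps from squalene to cholesterol were at -0.32 (-0.66 to 0.02), against 0.42.

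**Figure D5:**
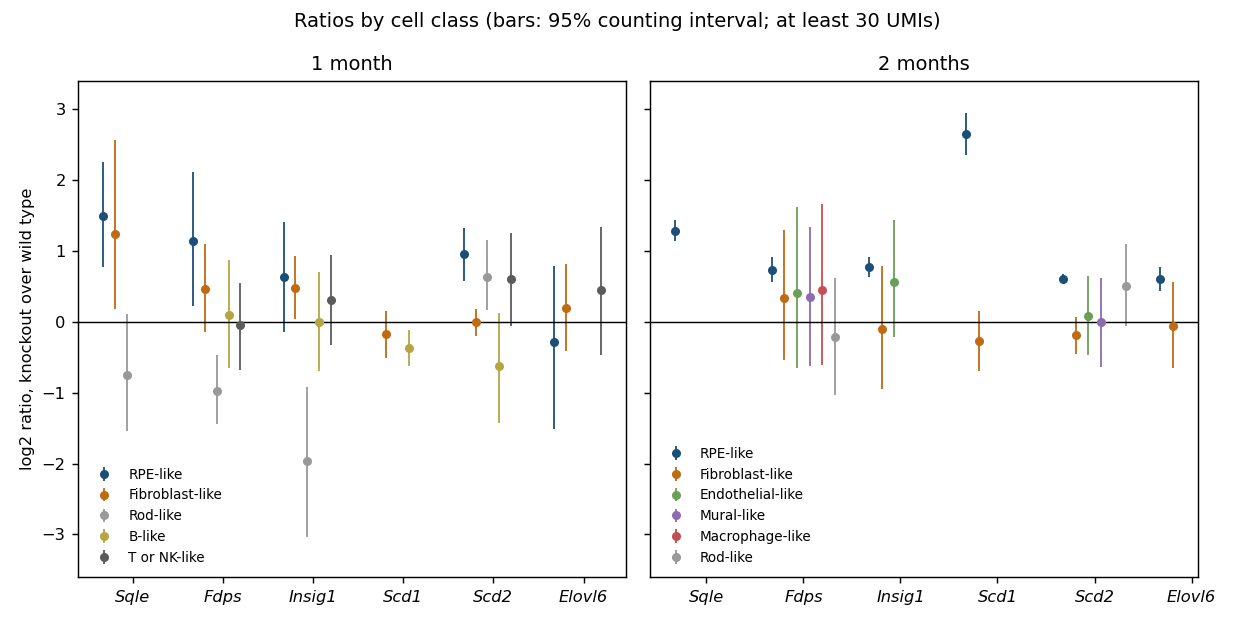
Log2 ratio of knockout to wild type for 6 members by cell class at 1 month (left) and 2 months (right), drawn where at least 30 UMIs were counted, with bars for the 95% counting interval. At 2 months Scd1 stands at 2.65 in RPE-like and -0.27 in fibroblast-like cells, and Scd2 at 0.61 and -0.19.

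Of 53 further genes of these pathways, from a list also chosen with earlier results known, 47 were compared in RPE-like cells at 2 months. Of these, 31 were higher and 16 lower, with a median of 0.06, the same as for all genes. At 1 month 14 of 23 were higher, with a median of 0.15. Elovl4, which makes very long chain fatty acids, was at least 1.5-fold lower at both ages, with 40 and 7 UMIs in the 1-month pair (-1.75, -3.24 to -0.66) and 863 and 230 UMIs in the 2-month pair (-0.94, -1.16 to -0.73). Rod markers, from cells that also express Elovl4, gave a summed 397 CPM (wild type) against 781 CPM (knockout) in the RPE-like cells of 1 month and 70.1 against 44.4 CPM in those of 2 months, none at 0, and their part in this result was not tested. Thrsp, a nuclear protein tied to the induction of fatty acid synthesis, was named after its values were seen: it had 65 and 187 UMIs at 2 months (4.13 and 23.1 CPM, 2.48, 2.07 to 2.92) and 3 and 5 at 1 month.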

How the data were processed

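The authors deposited raw UMI counts per gene and barcode, whole numbers with no normalization; the file headers name Cell Ranger 6.0.2 (1 month) and 7.0.1 (2 months). Instead, Cell Ranger 3.0, Seurat 4.0 and mm9 appear in the submitters' processing notes. No source used here says whether intron reads were included. Library totals were 11194301, 12022513, 23070271 and 16292472 UMIs. A barcode was kept from 300 detected genes upward if mitochondrial UMIs made up no more than 30%. Scrublet marked 26 of 6555, too few to count as having worked, and these were removed. The 6529 cells were clustered with scanpy 1.11.5 (2000 variable genes, 30 components, 15 neighbours, Leiden resolution 1.0, no integration) into 30 clusters, named from marker genes; 4 stayed unnamed, 1 rule for this being written after the clusters were seen. UMIs were summed per library and class. Log2 ratios of CPM after adding 0.5 counts, with exact conditional binomial 95% intervals, were computed where both libraries of a pair together held 30 or more UMIs of a gene, and the calculation was tested on simulated data. CPM carry exact Poisson and shares exact Clopper-Pearson 95% intervals. Full values were given to members at least 1.5-fold apart at an age with an interval that excludes 0, and to other pathway genes at least 1.5-fold apart at both ages; 1 result under this rule is not reported here. The members, the other gene lists and the markers were chosen with earlier results of these data known. Positions are from GENCODE M21 (GRCm38).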

Additional observations from a re-analysis of the deposited data

Results flagged for a closer look

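Of 169 pairs of ratios compared, between the ages in RPE-like cells or between RPE-like cells and another class of the same libraries, 3 had intervals that exclude 0 on opposite sides. None of these differences was tested. Elovl5 in RPE-like cells was at 1.17 (0.22 to 2.17) at 1 month and at -0.22 (-0.40 to -0.04) at 2 months. Fdps at 1 month was at 1.14 (0.22 to 2.12) in RPE-like cells and at -0.97 (-1.45 to -0.47) in rod-like cells, where the share of cells with a Fdps UMI ran the other way, 12.7% in wild type and 16.4% in knockout. Hmgcs1 at 2 months was at 0.28 (0.12 to 0.43) in RPE-like cells and at -0.80 (-1.66 to -0.02) in mural-like cells, from 43 and 20 UMIs.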

How the results depend on the processing

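The results were recomputed under 18 alternatives, each changing 1 choice. The 2-month median of the members stayed between 0.17 (each cell weighted equally) and 0.43 (Malat1-rich barcodes only), and 24 to 29 members were higher. The share of all genes higher ran from 43.6% (knockout reweighted to the wild-type cluster mix) to 76.5% (no filter on UMIs). The 1-month median lay between 0.17 (Leiden resolution 0.5, where the median of all genes was -0.20) and 0.64 (at least 100 UMIs) over the 17 alternatives with more than 1 member compared; in Malat1-rich barcodes only 1 member, Scd2, was compared, at 0.71. At 2 months the summed sterol members, at 0.40, went to 0.34 with median-ratio scaling, 0.28 with each cell weighted equally and 0.52 in Malat1-rich barcodes. The summed fatty acid members, at 0.45, went to 0.38 with median-ratio scaling, 0.38 with each cell weighted equally and 0.50 without Malat1-rich barcodes. At 1 month 3 of 3 members were higher with at least 100 UMIs (all genes 43.4%) and 23 of 34 with no filter (all genes 81.8%). With no filter the members' share was thus below that of all genes, whose median was 0.68. It was 3 of 3 with cells thinned to equal depth (all genes 50.3%) and 1 of 1 in Malat1-rich barcodes only (all genes 44.8%). In the reweighting of the knockout to the wild-type clusters it was 9 of 13 (all genes 47.4%). At 1 month that reweighting kept cluster 0 alone, since no other cluster had 30 cells in both libraries. Each of these settings changed the number of genes reaching the filter. The summed sterol members, at 0.39, went to 0.12 with thinning. At 1 month at least 2-fold higher were 3 members, 6 with at least 10 UMIs, 7 with no filter, 1 at Leiden resolution 0.5 and 0 with at least 100 UMIs, with thinning and in Malat1-rich barcodes only. At 2 months 2 became 4 in Malat1-rich barcodes only. The share of all genes at least 2-fold higher was not computed under the alternatives, so these counts have no background beside them. Elovl6 at 2 months went from 0.61 to 0.26 without Malat1-rich barcodes, 0.19 with them only and 0.19 reweighted. Acaca at 2 months went from 0.27 to -0.35 in Malat1-rich barcodes only and -0.10 reweighted, and Scap from -0.25 to 0.21 in Malat1-rich barcodes only. Scd1 ranged from 1.57 to 3.14 and Sqle from 1.08 to 1.42 at 2 months and from 0.63 to 1.66 at 1 month. The median of the steps from squalene to cholesterol at 1 month ranged from -0.35 to 0.40 and that of the regulators at 2 months from -0.27 to 0.21. The cause of these changes was not tested. Depth limits the 1-month values: 14 members stayed under 30 UMIs. No paired analysis was possible because each group is 1 library.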
